A study of Mus musculus with 9 samples.

Results

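Cells sense oxygen through prolyl hydroxylases, which mark the alpha subunit of hypoxia-inducible factor (HIF) for destruction by the VHL ubiquitin ligase. When oxygen is short, HIF-1 alpha escapes this marking, pairs with ARNT and switches on genes for glucose uptake, glycolysis, lactate export, mitochondrial clearance and blood vessel growth. Myeloid cells rely heavily on glycolysis and keep this system in use. Hif1a, the gene of the alpha subunit, is a described target of the miR-17-92 microRNA cluster, which links the pathway to Dicer, the enzyme that cuts microRNA precursors.

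The genes described here are 36 listed hypoxia response and glycolysis genes: the HIF factors and their hydroxylases, transporters, glycolytic enzymes and other hypoxia targets. A gene was represented by the probe set that the platform annotation assigned to its symbol alone, and where there were several, by the one with the highest mean log2 signal over all 9 arrays. Such probe sets were found for 33 of the 36 genes. Those of Gapdh were the array's own control probe sets, so 32 genes stood among the 18193 genes with a probe set of their own. Of these 32, 30 were bright enough to be tested, among 12347 genes tested in all, and Ankrd37 and P4ha2 fell below the floor. Gpi1, Eno1 and Bnip3l have no value here, the last because its probe sets carry several symbols.

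RNA came from EYFP-positive granulocyte-macrophage progenitors (GMPs), bone marrow cells that give rise to neutrophils and monocytes, with 1 array for each of 3 wild-type, 3 heterozygous and 3 null samples. The donors carried Cebpa-Cre, a recombinase driven by the promoter of a myeloid transcription factor gene, the R26-LSL-Eyfp reporter that Cre switches on, and floxed Dicer1 (Dicer1fl) alleles. The labels give one background string, with wild-type and floxed Dicer1, for all 9 samples, and by genotype call them Dicer wild type, Dicer heterozygous deletion and Dicer null. The design text names the same groups wt control, -/wt and fl/fl. Donor cells were fetal liver cells of embryonic day 13.5. They were injected into irradiated (8.5 Gy) C57BL/6 recipients of 6 to 8 weeks of age, and tissues were taken 6 to 10 weeks later. Cells of 1 fetal liver typically went into more than 1 recipient, and the labels do not say which samples share a donor. The p-values measure no more than how far these samples vary, and some of that variation may be technical. In bulk RNA such as this, fewer cells of a type and less RNA per cell cannot be told apart.

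Signals are MAS5 intensities scaled by the authors to a trimmed mean of 100 on every array. Median signals were 12.4 to 16.1. Dicer1 read 223 to 244 on wild-type, 169 to 201 on heterozygous and 97.2 to 115 on null arrays, in the order the labels give. Its log2 difference from wild type was -1.07 in null cells (limma adjusted p = 1.88e-05). In heterozygous cells it was -0.31, which did not pass (adjusted p = 0.217). With all Dicer1 probe sets averaged the heterozygous value was -0.51 and passed (adjusted p = 0.015). The 12 GMP markers examined were all above the floor, and their summed signal was 29140 to 32420 in wild-type, 29000 to 33940 in heterozygous and 29770 to 31630 in null samples. Single markers differed more than the sum. In null against wild type 2 were higher and 1 lower (limma adjusted p under 0.05), namely Csf3r, Fcgr3 and Gfi1. The 12 log2 differences ran from -0.77 to 0.59, and 7.6% and 8.09% of all genes were called higher and lower. In heterozygous against wild type 0 of the 12 passed. The labels describe all samples as female, but Xist, the RNA that coats the inactive X chromosome, read 2610 on the array of wild-type replicate 2 and 16.4 to 30.2 on the other 8. For the members and Dicer1, results are given without that array where this changes a call. Calls of other named genes were not followed without it.

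In null against wild-type GMPs, 5 of the 30 tested members rose and 1 fell (limma, Benjamini-Hochberg adjusted p under 0.05 over all 12347 genes). Hif1a, the glucose transporter gene Slc2a1, the mitophagy receptor gene Bnip3, the hydroxylase gene Egln3 and the phosphofructokinase gene Pfkp rose, and Higd1a, a mitochondrial hypoxia-induced gene, fell. Of all genes tested, 7.6% were called higher and 8.09% lower, 15.7% in all, against 16.7% and 3.33% of the members. These shares are a description, since the members were listed with results of these data known. The median log2 difference was 0.05 over the members and -0.04 over all genes. Without wild-type replicate 1 the members' median was -0.03. In all, 13 of the 30 members had an unadjusted p under 0.05, where 29% of all genes did. The rise of Pfkp and that of Egln3 lay just inside the threshold, and the count of rises was 3 without null replicate 1, null replicate 3 or wild-type replicate 3. Without wild-type replicate 2 it was 4.

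**Figure D1:**
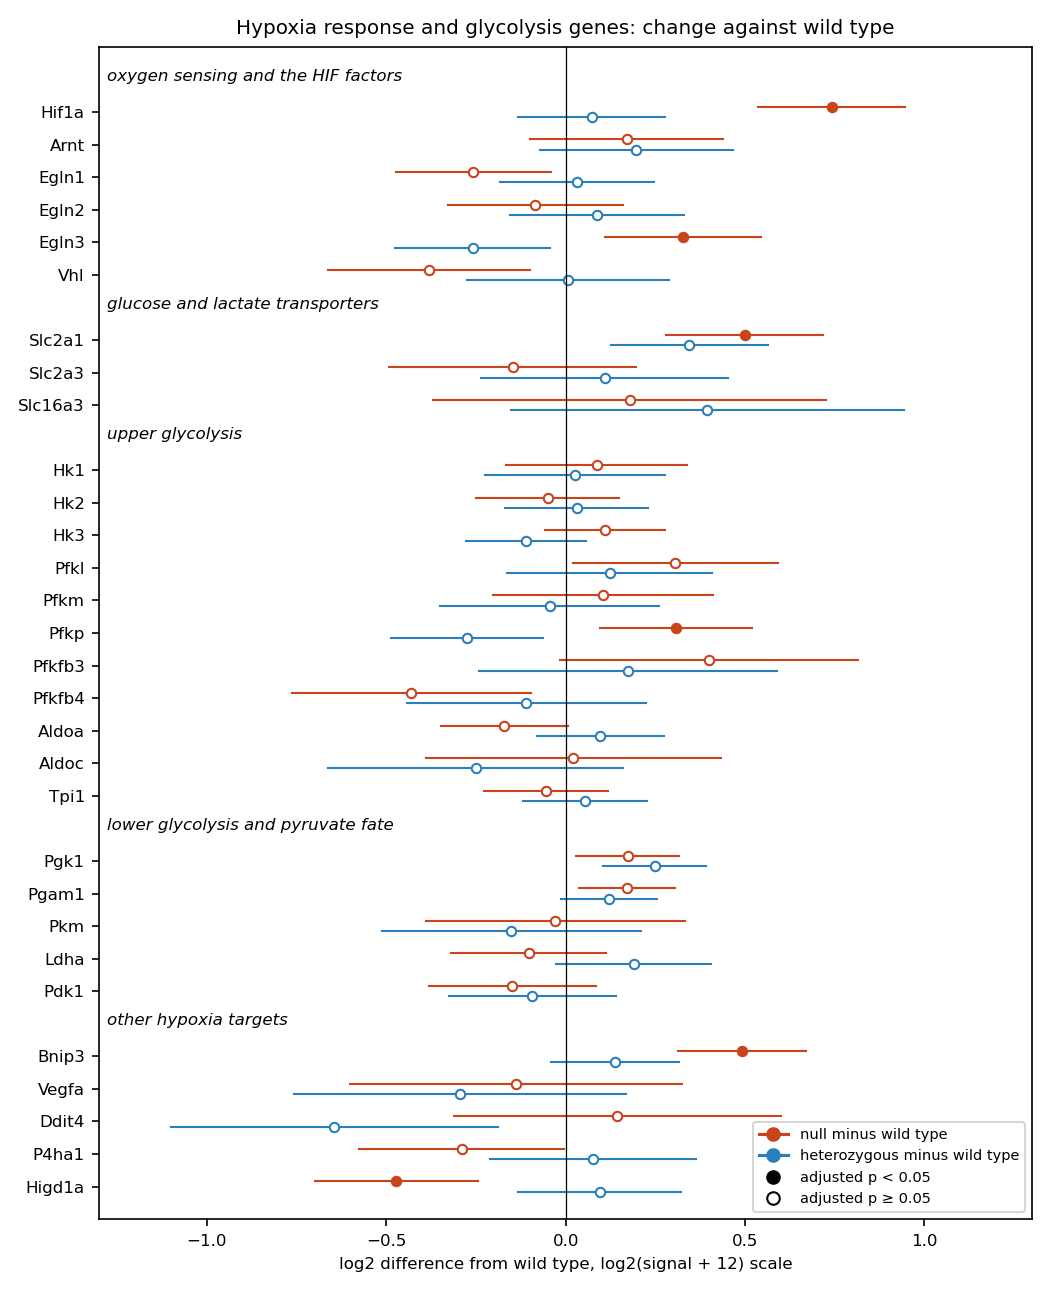
Log2 difference from wild type (x axis, log2(signal + 12) scale) of the 30 tested members, grouped by role, for null (red) and heterozygous (blue) samples, with 95% intervals of the limma fit and 3 arrays a group. Filled points passed an adjusted p of 0.05: 5 members to the right and 1 to the left in null samples, and 0 in heterozygous samples.

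Among the oxygen sensing genes, Hif1a showed the clearest difference. Its signal was 702, 689 and 654 on the wild-type arrays, 617, 774 and 772 on the heterozygous arrays and 1160, 1060 and 1228 on the null arrays. The 3 null values all lay above the other 6, while wild-type and heterozygous values overlapped. The mean rose from 682 ± 24.7 in wild type to 1149 ± 84.6 in null cells (SD, n = 3), a log2 difference of 0.74 (SE 0.10, limma adjusted p = 0.000186), or 1.67-fold on the log2(signal + 12) scale. Null cells also exceeded heterozygous cells by 0.67 (SE 0.10, adjusted p = 0.000513). Heterozygous cells differed from wild type by 0.07, with a 95% interval of -0.13 to 0.28 and an adjusted p of 0.826. MicroRNAs of the miR-17-92 cluster are shown because Hif1a is a described target of the cluster. The paralogs miR-106b-5p and miR-93-5p are shown for the seed they share with miR-17-5p. The mature sequences of 8 of these microRNAs, all from RefSeq (GRCm38.p6), fall into 4 groups by seed, the bases 2 to 8 in capitals.
miR-17-5p: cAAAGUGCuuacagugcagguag
miR-20a-5p: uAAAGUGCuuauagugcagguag
miR-106b-5p: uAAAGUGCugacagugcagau
miR-93-5p: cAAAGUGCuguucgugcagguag
miR-18a-5p: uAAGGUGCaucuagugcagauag
miR-19a-3p: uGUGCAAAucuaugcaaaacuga
miR-19b-3p: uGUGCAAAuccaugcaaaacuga
miR-92a-3p: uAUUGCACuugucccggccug
The first 4 share the seed AAAGUGC, and miR-19a-3p and miR-19b-3p share GUGCAAA. miR-18a-5p and miR-92a-3p each have a seed of their own. The arrays did not measure mature microRNAs, and sites in the Hif1a transcript were not searched here.

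Hif1a has 3 other probe sets, all dimmer. Of the 2 above the floor, one gave 0.24 (SE 0.12, adjusted p = 0.231 in a limma fit over probe sets) and the other 0.24 (SE 0.16, adjusted p = 0.391) in null against wild type. The first of them passed in null against heterozygous cells (0.56, adjusted p = 0.00924). All 3 tested probe sets lay above 0, and the brightest gave the largest difference. With the probe sets averaged, the Hif1a difference was 0.33 and still passed (adjusted p = 0.0316).

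The hydroxylases that mark HIF did not move together. Egln3, whose own gene is a described HIF target, read 350, 433 and 378 on wild-type, 298, 356 and 309 on heterozygous and 456, 507 and 498 on null arrays. The null values lay above all others. The log2 difference was 0.33 in null against wild type (SE 0.10, adjusted p = 0.0416) and 0.59 in null against heterozygous cells (SE 0.10, adjusted p = 0.00184). The former did not pass without null replicates 1, 2 or 3 (adjusted p = 0.0516, 0.111 and 0.12), without wild-type replicates 1 or 3 (0.146 and 0.108) or without heterozygous replicate 3 (0.0523), all from the same limma fit. A dimmer Egln3 probe set gave 0.51 (SE 0.18, adjusted p = 0.0855). Egln1, the main HIF hydroxylase in most tissues, had means of 284 ± 17.8, 292 ± 32.3 and 236 ± 11.5 (SD, n = 3) in wild-type, heterozygous and null cells, a null against wild-type value of -0.26 that did not pass (95% interval -0.47 to -0.04, limma adjusted p = 0.1). Egln2 gave -0.08 (-0.33 to 0.16), and Arnt, the partner of HIF-1 alpha, 0.17 (-0.10 to 0.44). Vhl, the substrate receptor of the ubiquitin ligase, read 115 to 138 on wild-type and 91.0 to 98.3 on null arrays. Its values did not overlap, but the difference of -0.38 (SE 0.13) missed the threshold (adjusted p = 0.0639), and it passed without heterozygous replicate 1 (0.0325).

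**Figure D2:**
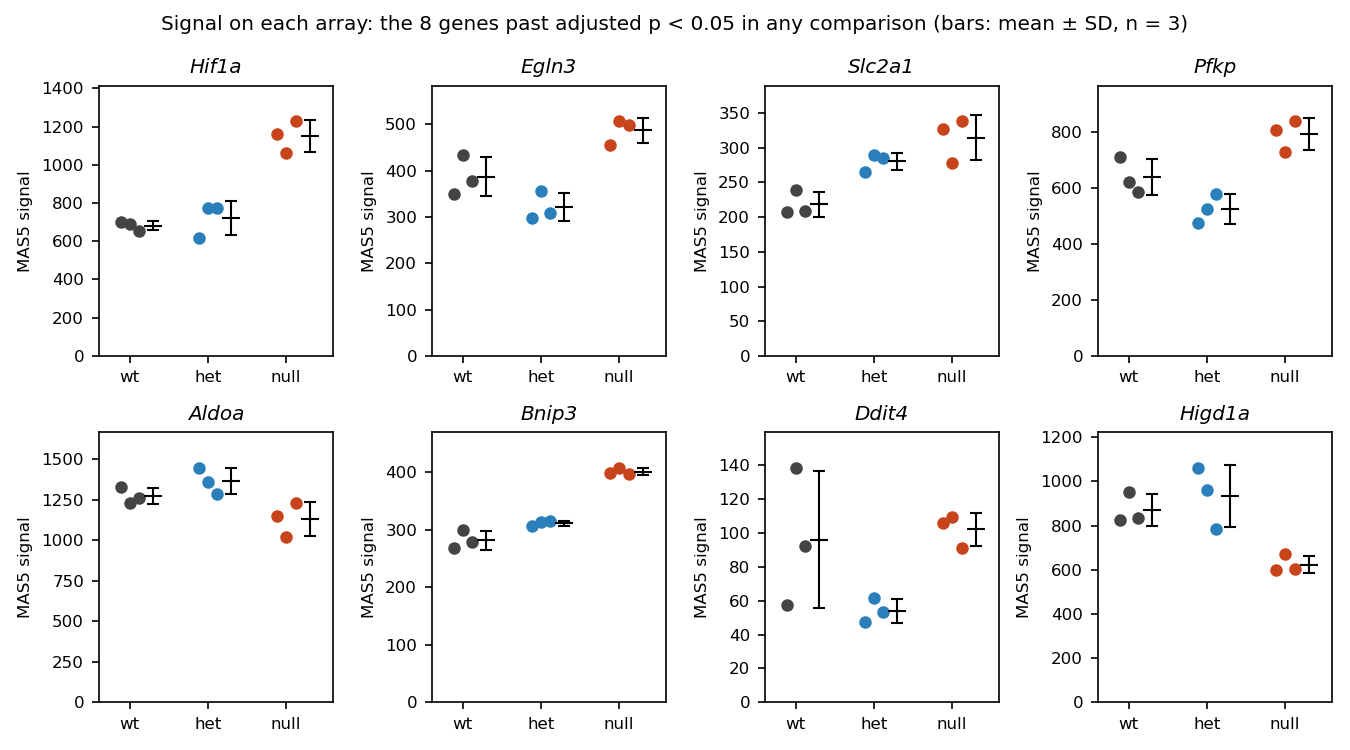
MAS5 signal (y axis, linear, from 0) on each of the 9 arrays for the 8 members past the threshold in any comparison, with bars for mean ± SD of 3 arrays. Hif1a and Bnip3 null values stand above all 6 other arrays, Higd1a null values stand below them, and the 3 wild-type values of Ddit4 spread from 57.4 to 138.

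Of the transporter genes, Slc2a1, which encodes the basal glucose transporter GLUT1, changed. Signals were 207.0, 239.1 and 209.2 in wild type, 266, 289 and 286 in heterozygous and 327, 277 and 338 in null samples. Both other groups lay wholly above wild type. Null cells exceeded wild type by a log2 difference of 0.50 (SE 0.10, limma adjusted p = 0.00474), or 1.41-fold. In heterozygous cells the difference was 0.34 (95% interval 0.13 to 0.56) and missed the threshold after adjustment (adjusted p = 0.135). Null and heterozygous cells differed by 0.15 (-0.06 to 0.37), which did not pass. The dimmer probe sets of Slc2a1 stood at 0.24 and 0.12 in null against wild type (adjusted p = 0.305 and 0.704), and with all probe sets averaged the value was 0.29 (adjusted p = 0.0939). Slc2a3, the gene of the high-affinity transporter GLUT3, gave -0.15 (-0.49 to 0.20). The lactate exporter gene Slc16a3 was dim, with signals of 4.48 to 18.3 over all arrays, and gave 0.18 (-0.37 to 0.73).

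Upper glycolysis, from hexokinase to triose phosphate, held 1 call among 11 tested genes in null against wild type, Pfkp, and 2 in null against heterozygous cells, Pfkp higher and Aldoa lower. Pfkp, the platelet type of phosphofructokinase, read 710, 620 and 585 in wild type, 474, 523 and 579 in heterozygous and 808, 728 and 838 in null samples. Null values lay above all wild-type values and heterozygous values below them. The null against wild-type difference of 0.31 (SE 0.10) had an adjusted p of 0.0496 and the null against heterozygous difference of 0.58 (SE 0.10) one of 0.00168. With all Pfkp probe sets averaged the latter was 0.15 and did not pass (adjusted p = 0.344). The former missed the threshold without null replicates 1 or 3 (0.122 and 0.163), wild-type replicates 2 or 3 (0.117 and 0.172) or heterozygous replicate 2 (0.0719). The dimmer probe sets of Pfkp stood at 0.01 and -0.35 (adjusted p = 0.981 and 0.303), and with all of them averaged the value was -0.0098 (adjusted p = 0.96). The liver-type gene Pfkl gave 0.31 (95% interval 0.02 to 0.59, limma adjusted p = 0.144) and the muscle-type gene Pfkm 0.10 (-0.20 to 0.41).

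The hexokinases, which trap glucose in the cell, gave 0.09 for Hk1, -0.05 for Hk2 and 0.11 for Hk3 in null against wild type, none past the threshold, with 95% intervals that stay between -0.25 and 0.34. Pfkfb3 and Pfkfb4 make the activator of phosphofructokinase. They gave 0.40 (-0.02 to 0.81) and -0.43 (-0.76 to -0.10), and neither passed (adjusted p = 0.191 and 0.0763), although Pfkfb3 did without null replicate 2 (0.0462) and Pfkfb4, which has 1 probe set, did in the fit on probe set means (0.0461). The aldolase gene Aldoa read 1329, 1233 and 1264 in wild type, 1449, 1360 and 1288 in heterozygous and 1151, 1021 and 1231 in null samples. It was lower in null than in heterozygous cells by -0.27 (SE 0.08, adjusted p = 0.0436). Against wild type the value was -0.17 (adjusted p = 0.19). The Aldoa probe sets did not give one answer against heterozygous cells. In the fit over probe sets the brightest missed the threshold (adjusted p = 0.0638), 1 other passed (-0.41, adjusted p = 0.0164), and the remaining 3 stood at -0.28, 0.02 and -0.05 (adjusted p = 0.0544, 0.913 and 0.82). With all of them averaged the value was -0.20 (adjusted p = 0.135). The call on the brightest one was lost without heterozygous replicates 1 or 2 (0.151 and 0.112), null replicates 1 or 2 (0.082 and 0.157) or wild-type replicates 1 or 3 (0.05 and 0.0566). Aldoc and the triose phosphate isomerase gene Tpi1 gave 0.02 (-0.39 to 0.43) and -0.06 (-0.23 to 0.12).

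In lower glycolysis, 0 of 5 tested genes passed in any of the 3 comparisons in limma. Pgk1, an ATP-making kinase encoded on the X chromosome, read 5750, 5644 and 5702 in wild type, 7385, 6328 and 6645 in heterozygous and 6228, 6684 and 6370 in null samples. All 6 values of the latter groups lay above wild type. The differences were 0.17 in null (95% interval 0.03 to 0.32, limma adjusted p = 0.0997) and 0.25 in heterozygous cells (0.10 to 0.39, adjusted p = 0.0991). Wild-type replicate 2, with the high Xist signal, had the lowest Pgk1 value by a small margin. The other Pgk1 probe sets differed from this pattern. One stood at 0.0012 in null cells and at -0.01 in heterozygous cells, relative to wild type. The other stood at 0.20 and -0.27, and it was higher in null than in heterozygous cells (0.47, SE 0.12, adjusted p = 0.0291). The mutase gene Pgam1 gave 0.17 in null cells (0.04 to 0.30, adjusted p = 0.0805), also without overlap. Pkm, Ldha and Pdk1, which make pyruvate, turn it into lactate and restrain its entry into mitochondria, gave -0.03, -0.10 and -0.15, none past the threshold. Ldha was 1132, 1107 and 1297 in null against 1318, 1497 and 1523 in heterozygous samples, a difference of -0.29 that did not pass (adjusted p = 0.0688), and it passed without wild-type replicate 2 (0.0329). Pdk1 has 4 probe sets, and a dimmer one fell by 0.65 in null cells (SE 0.16, adjusted p = 0.0177 in the fit over probe sets) against the -0.15 of the brightest. With all 4 averaged, Pdk1 passed as lower (-0.29, adjusted p = 0.0403).

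Gapdh could be followed only by the array's control probe sets, and each was added to the gene table in a limma fit of its own. For the 3′ probe set, signals were 3600, 3524 and 3668 in wild type, 4174, 3744 and 3465 in heterozygous and 3813, 3633 and 3784 in null samples. Null against wild type gave 0.06 (95% interval -0.10 to 0.21, adjusted p = 0.662). The 5′ probe set gave -0.06 against wild type and was lower in null than in heterozygous cells by -0.29 (adjusted p = 0.0478). The ratio of 3′ to 5′ signal, which grows as RNA or its labelled copies shorten, was 6.56 to 7.44 in wild type, 6 to 6.33 in heterozygous and 7.11 to 7.72 in null samples. The same ratio for Actb did not follow this order, with 7.2 to 10.1, 7.48 to 8.45 and 7.28 to 8.25. The signal of the 5′ control probe set for 18S ribosomal RNA was 907 to 1932, 2548 to 3128 and 1338 to 1830. The part of these measures in the differences between null and heterozygous cells was not tested.

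Among the other hypoxia targets, Bnip3 and Higd1a went opposite ways. Bnip3, whose product brings damaged mitochondria to autophagy, read 268, 300 and 278 in wild type, 306, 312 and 315 in heterozygous and 398, 408 and 396 in null samples. The 3 groups did not overlap. The log2 difference was 0.49 in null against wild type (SE 0.08, limma adjusted p = 0.00134), 1.41-fold, and 0.35 against heterozygous cells (adjusted p = 0.0121). Heterozygous against wild type gave 0.14 (-0.04 to 0.32), which did not pass. Higd1a, a small inner membrane protein of mitochondria, read 826, 953 and 833 in wild type, 1062, 961 and 784 in heterozygous and 600, 669 and 602 in null samples. The null values lay below all others, with a fall of -0.47 against wild type (SE 0.11, adjusted p = 0.0079) and of -0.57 against heterozygous cells (SE 0.11, adjusted p = 0.00319). Dimmer Higd1a probe sets gave 0.05 and -0.10, and with the probe sets averaged the value was -0.17 (adjusted p = 0.179).

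**Figure D3:**
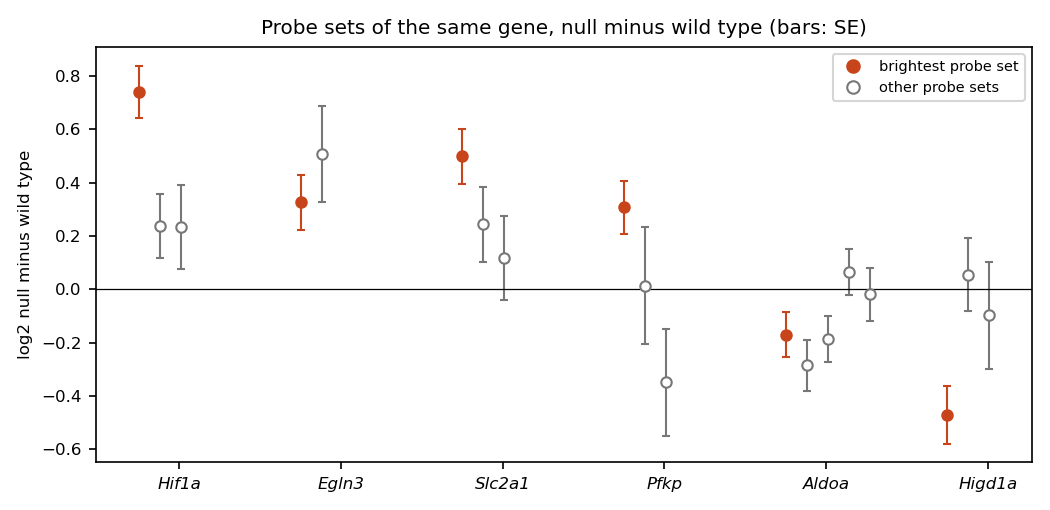
Log2 difference of null minus wild type (y axis) for every probe set above the floor of the 6 members called in any comparison that have more than 1, with SE bars of a limma fit over probe sets. Filled points are the brightest probe sets. The dimmer ones (open) of Hif1a, Egln3 and Slc2a1 lie above 0 like the brightest, while those of Pfkp, Aldoa and Higd1a lie on both sides of 0.

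The dimmer probe sets of a gene often read another part or isoform of its transcript. Of 33 such probe sets above the floor, from 19 members, 21 had the sign of the brightest one in null against wild type, and 0 passed together with it. In the fit over all probe sets, which adjusts over more rows, the brightest probe sets of Egln3 and Pfkp missed the threshold (adjusted p = 0.0558 and 0.065).

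Ddit4, a stress-induced inhibitor of the growth kinase mTOR, spread widely among the wild-type samples. It read 57.4, 138 and 92.3 in wild type, 47.2, 61.6 and 53.3 in heterozygous and 106, 109 and 91.2 in null samples. Null values lay above heterozygous values (0.79, SE 0.21, limma adjusted p = 0.0231). Null against wild type gave 0.14 (-0.31 to 0.60). The heterozygous value of -0.65 (-1.10 to -0.19) did not pass (adjusted p = 0.193), but it did without wild-type replicate 1 (0.0211). The call against heterozygous cells was lost without heterozygous replicates 1 or 3 (0.0962 and 0.0571) or null replicates 1 or 2 (0.0649 and 0.0659). Many immediate early genes, which answer stress within minutes, fell in both groups. These were 10 of 18 tested in null and 8 in heterozygous cells, both against the same wild-type arrays, where 8.09% and 0.697% of all genes fell. Jun (-3.68 and -3.33), Dusp1 (-2.91 and -3.09), Fos (-2.65 and -2.47) and Ier2 (-1.11 and -0.40, the last not past the threshold) had the smallest p-values in null against wild type, and the values in parentheses are for null and then heterozygous cells. Their part in the Ddit4 values was not tested.

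Vegfa, the blood vessel growth factor gene, gave -0.14 in null against wild type (-0.60 to 0.33). P4ha1, a subunit of the collagen hydroxylase, gave -0.29 (-0.58 to -0.004, adjusted p = 0.166) with null values of 84.9 to 91.4 below the wild-type values of 103 to 122. Its partner isoform P4ha2 and the ankyrin repeat gene Ankrd37 were untested, with signals of 0.458 to 8.71 and 0.595 to 14.0.

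The promoters of these genes often hold the core of the HIF binding site. The core was searched as ACGTG or GCGTG on either strand in the 300 bases around each RefSeq start (250 before and 50 after), in windows of GRCm38.p6. A palindrome CACGTG, the E-box that other factors also bind, holds ACGTG on both strands and was counted on each. Windows were found for 34 of the 36 listed genes, and 31 of them (91.2%) held a match, against 65.7% of the 10007 tested genes with a window and 46.7% of all 27025 genes in the table. For ACGTG alone the shares were 73.5%, 29% and 21.8%, and for GCGTG alone 67.6%, 54.1% and 35.2%. In the 250 bases before the start, ACGTG was held by 61.8% of the members and 24.9% of the tested genes. All 6 members called in null against wild type had a match, as did 27 of the 29 tested members with a window, so a match did not set the called members apart. Many members are described HIF targets, some of them known by such motifs, and these shares are no independent evidence. Base composition was not matched. The 250 bases before the start are shown for a pair of members that rose, 1 that fell and 1 that did not pass, with each match in capitals.
Bnip3, chr7:138909507-138909756, minus strand: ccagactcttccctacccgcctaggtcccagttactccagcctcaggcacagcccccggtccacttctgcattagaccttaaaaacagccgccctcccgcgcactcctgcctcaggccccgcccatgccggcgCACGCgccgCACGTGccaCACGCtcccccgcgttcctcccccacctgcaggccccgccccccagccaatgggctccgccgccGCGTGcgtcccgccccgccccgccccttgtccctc
Slc2a1, chr4:119108495-119108744, plus strand: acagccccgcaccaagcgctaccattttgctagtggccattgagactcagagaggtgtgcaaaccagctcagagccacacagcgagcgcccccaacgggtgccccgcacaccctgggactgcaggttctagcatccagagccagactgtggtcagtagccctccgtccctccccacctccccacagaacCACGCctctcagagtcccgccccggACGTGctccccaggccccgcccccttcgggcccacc
Higd1a, chr9:121857797-121858046, minus strand: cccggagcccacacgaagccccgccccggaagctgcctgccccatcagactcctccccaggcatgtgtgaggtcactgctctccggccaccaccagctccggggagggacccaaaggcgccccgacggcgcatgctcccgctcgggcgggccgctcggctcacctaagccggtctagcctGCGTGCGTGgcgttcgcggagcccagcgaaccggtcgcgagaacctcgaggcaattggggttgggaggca
Ldha, chr7:46845554-46845803, plus strand: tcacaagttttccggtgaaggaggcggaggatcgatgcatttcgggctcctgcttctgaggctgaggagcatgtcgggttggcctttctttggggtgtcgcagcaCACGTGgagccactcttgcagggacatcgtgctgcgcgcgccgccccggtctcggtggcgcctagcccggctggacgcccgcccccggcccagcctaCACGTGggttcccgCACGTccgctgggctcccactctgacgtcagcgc
Bnip3 has 5 matches in this stretch, the nearest beginning 35 bases before the start, and they include a CACGTG. Slc2a1 has 2, one of each core. Higd1a, which fell, has 2 overlapping GCGTG matches. This Ldha window, from 1 of its 2 starts in the table, has 5 ACGTG matches, 4 of them in a pair of CACGTG palindromes.

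**Figure D4:**
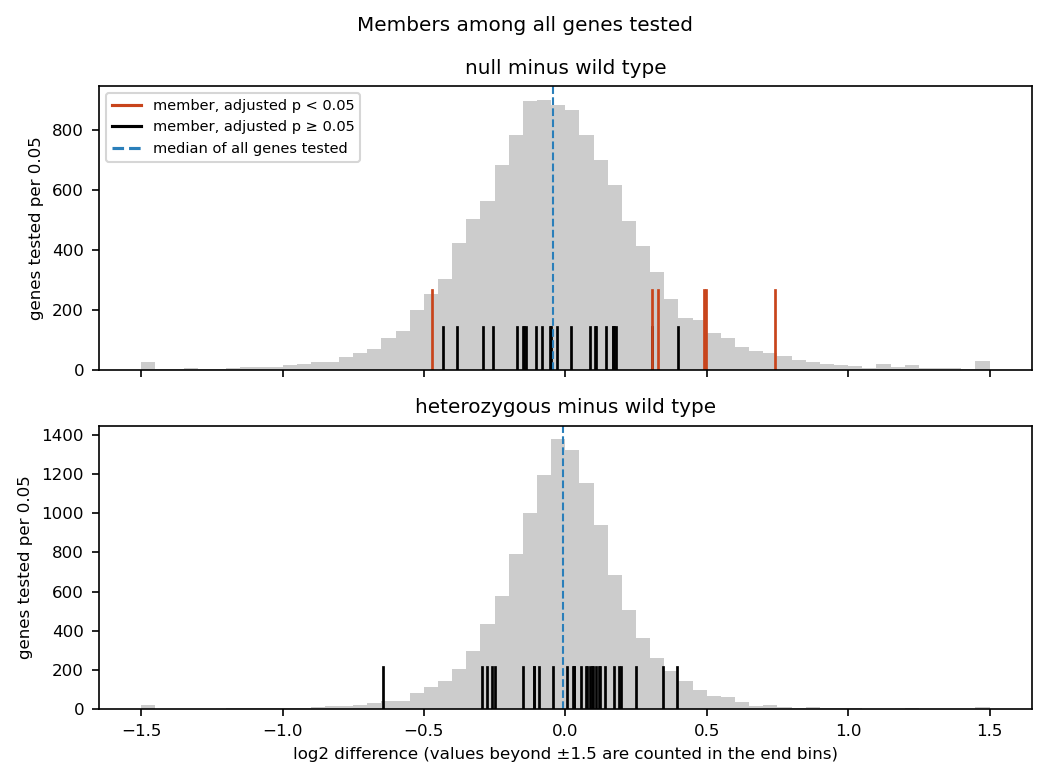
Log2 difference from wild type (x axis) of all 12347 tested genes (grey, number per bin of 0.05), for null (upper) and heterozygous samples (lower), with the 30 members as ticks, red and taller where called. The members spread on both sides of the dashed median of all genes, -0.04 in null and -0.01 in heterozygous samples.

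In heterozygous against wild-type GMPs, 0 of 30 members passed in limma, where 0.697% of all genes were called higher and the same share lower, 1.39% in all. An unadjusted p under 0.05 was reached by 5 members, Egln3, Slc2a1, Pfkp, Pgk1 and Ddit4, and by 12.9% of all genes. Values did not overlap for 6 members. They were higher for Slc2a1, Pgk1, Pgam1, Tpi1 and Bnip3 and lower for Pfkp, and the shares over all genes were 8.48% and 9.78%. Differences ran from -0.65 for Ddit4 to 0.39 for the dim Slc16a3, with a median of 0.06 against -0.01 over all genes. Egln3 and Pfkp lay below wild type in heterozygous (-0.26 and -0.28) and above it in null cells.

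Null against heterozygous GMPs tests the gap between the other comparisons directly, and it shares its arrays with them. Here 5 members were higher, Hif1a, Egln3, Pfkp, Bnip3 and Ddit4, and 2 lower, Aldoa and Higd1a, where 6.84% and 7.49% of all genes were called, 14.3% together. An unadjusted p under 0.05 was reached by 12 members and by 27.9% of all genes. The median was 0.01 over the members and -0.03 over all genes. The count of lower members was 1 without any single one of heterozygous replicate 2, null replicates 1 or 2 or wild-type replicates 1 or 3, and 3 without wild-type replicate 2, where Ldha joined them, or without heterozygous replicate 1, where Aldoa was lost and Vhl and P4ha1 were gained. By non-overlapping values 7 members were higher and 7 lower in null cells, where 14.7% and 18% of all genes were. In null against wild type these counts were 8 and 6, where 14.1% and 19% of all genes were.

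Other genes of the pathway were taken from lists of general knowledge. Of 12 tested HIF regulators, 1 rose and 1 fell (8.33% each) in null against wild-type cells, where 7.6% and 8.09% of all genes did. Hif1an, the asparaginyl hydroxylase that blocks HIF's activating domain, rose by 0.55 (SE 0.14, limma adjusted p = 0.0159), and Siah2, a ubiquitin ligase for the hydroxylases, fell by 0.54 (SE 0.15, adjusted p = 0.0235). Elob and Eloc, the elongin partners of VHL, gave -0.34 and -0.31 (adjusted p = 0.0644 and 0.0847). Both were lower in null than in heterozygous cells, by -0.53 and -0.37 (adjusted p = 0.00771 and 0.0471). In that comparison 1 of the 12 was higher (8.33%) and 2 were lower (16.7%), where 6.84% and 7.49% of all genes were. In heterozygous against wild-type cells 0 of the 12 passed in limma, and 1, the HIF antagonist gene Cited2 (0.21), had an unadjusted p under 0.05.

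Of 27 other described HIF targets tested, 1 rose (3.7%) and 2 fell (7.41%) in null against wild type, where 7.6% and 8.09% of all genes did. Ero1a, an oxidase of protein folding, rose by 0.29 (SE 0.09, adjusted p = 0.0431). Fam162a, a mitochondrial gene, fell by 0.42 (SE 0.10, adjusted p = 0.011) and the stress-induced gene Ndrg1 by 0.36 (SE 0.10, adjusted p = 0.0217). Gys1, the glycogen synthase gene, gave 0.36 (adjusted p = 0.0543). In heterozygous cells Ndrg1 fell by 0.85 (adjusted p = 0.000201) and Plin2, which coats lipid droplets, by 0.51 (adjusted p = 0.00635), and the other 25 did not pass. These 2 falls were 7.41% of the list, where 0.697% of all genes fell. Plin2 gave 0.14 in null against wild type (adjusted p = 0.338). Null cells exceeded heterozygous cells by 0.49 for Ndrg1 (limma adjusted p = 0.00423) and by 0.65 for Plin2 (adjusted p = 0.000312). In that comparison 4 of the 27 were higher (14.8%) and 2 lower (7.41%), where 6.84% and 7.49% of all genes were. Against wild type the medians were 0.09 in null and -0.04 in heterozygous cells.

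Among 27 tested isozymes and branch enzymes of glycolysis, 5 rose (18.5%) and 4 fell (14.8%) in null against wild type, where 7.6% and 8.09% of all genes did, with a median of -0.02. The mitochondrial glycerophosphate dehydrogenase gene Gpd2 rose by 0.51 (SE 0.10, limma adjusted p = 0.00344), the lactate dehydrogenase B gene Ldhb by 0.53 (SE 0.11, adjusted p = 0.00467) and Pgd, of the pentose phosphate pathway, by 0.26 (SE 0.06, adjusted p = 0.0122). Pgls, which acts just before Pgd in that pathway, fell by 0.49 (SE 0.09, adjusted p = 0.00345). The other rises were Pdhb and Gpd1l and the other falls Bpgm, Slc16a7 and Eno3, named after their values were seen. In heterozygous cells 0 of the 27 passed in limma and 4 had an unadjusted p under 0.05, among them Fbp1 (-0.55, adjusted p = 0.0884).

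Some lists of markers of other cell types also differed between the groups. The summed signal of 9 monocyte and macrophage markers was 2453 to 3772 in wild type, 3726 to 4254 in heterozygous and 4243 to 4310 in null samples, with C1qa and Ms4a7 below the floor. Of the 7 tested, 2 rose (Cd14 and Ccr2) and 1 fell (Cd68) in null cells, and 0 rose and 1 fell (Cd14) in heterozygous cells, in limma against wild type, with 4 of the 7 above 0 in each. Of all genes, 7.6% rose and 8.09% fell in null cells, and 0.697% rose and 0.697% fell in heterozygous cells. The sum of 9 dendritic cell markers was 301 to 427, 331 to 459 and 155 to 213, with Xcr1 below the floor. Of the 8 tested, 0 rose and 2 fell (25%) in null cells and 0 were called in heterozygous cells, in limma against wild type. For 10 late neutrophil markers the sum was 4041 to 7512, 2801 to 5076 and 2463 to 8860, with Mmp9 below the floor. Of the 9 tested, 0 rose and 2 fell (22.2%) in null cells, and 0 rose and 3 fell (33.3%) in heterozygous cells, against wild type. The lowest log2 differences were -2.12 in null and -1.97 in heterozygous cells. For 8 markers of mast cells, basophils and eosinophils the sum was 3686 to 5675, 3585 to 4074 and 4560 to 6601, with Il5ra below the floor. Of the 7 tested, 2 rose (28.6%) and 1 fell (14.3%) in null cells, with differences from wild type of -2.25 to 0.94. In heterozygous cells 0 rose and 1 fell (14.3%), with differences of -3.11 to 0.49. For 10 erythroid markers the sum was 362 to 1959, 705 to 1096 and 372 to 772, with Alas2 and Hba-a1 below the floor. All 8 tested erythroid markers lay below 0 in null against heterozygous cells (median -0.62), and 0 passed in limma. Platelet, B lymphoid, T and NK lymphoid and stromal lists had 0 calls against wild type. The part of these cells in the members' differences was not tested.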

How the data were processed

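RNA of 9 samples was hybridised to 1 Affymetrix array each. The intensity values deposited by the authors are linear MAS5 signals, MAS5 being named in the submitters' processing notes without version or settings. Their 2% trimmed mean is 100 on every array, which hides a change shared by most transcripts. Precision is limited by the number of arrays.

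There were 45101 probe sets in the table, with 64 controls. The platform annotation gave 1 symbol to 34945, several to 932 and none to 9160. Signals were analysed as log2(signal + 12), so fold changes of dim genes are understated. A gene entered the test if its mean was at or above the 40th percentile over probe sets, a signal of 8.49. One limma 3.58.1 model (R 4.3.3, lmFit and eBayes, intensity-dependent prior) held all 9 arrays and had 6 residual degrees of freedom and 8.1 from the prior. Two-sided tests were used, with Benjamini-Hochberg adjustment over 12347 genes. On simulated data of 12347 genes with 200 changed in null against wild type, 79% of 2-fold and 44% of 1.5-fold changes were recovered, with 8 false calls and 0 of the wrong sign. For 1.5-fold changes, heterozygous against wild type gave 41% and null against heterozygous 37%. The data had 1937 calls in null against wild type, so these shares need not hold for them.

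The members and lists were chosen with earlier results of these data known. Named genes are the members, Dicer1, and of each other pathway list the 4 with the smallest p in null and the 2 in heterozygous against wild type. By the same rule the called marker genes are Csf3r, Fcgr3, Gfi1, Ltf, Ngp, Lcn2, Ccr2, Cd14, Cd68, Fcer1a, Prg2, Epx, H2-Aa and H2-Eb1. Alternatives changed the pseudocount, filter, normalization, prior, array weights, arrays fitted, use of several probe sets and the replicate number as a block, and left out each array in turn.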

Additional observations from a re-analysis of the deposited data

How the results depend on the processing

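The calls of Hif1a and Bnip3 in both comparisons with null cells, and of Egln3 and Higd1a against heterozygous cells, held under all 21 alternatives. In null against wild type the count of members higher was 5 and became 3 with no filter on dim genes, without an intensity trend, with only the 6 arrays compared or with the mean of all probe sets, and 3 to 5 with 1 array left out. The count lower was 1, and 2 with the mean of all probe sets, where Higd1a was lost (adjusted p = 0.179) and Pfkfb4 and Pdk1 were gained (0.0461 and 0.0403), and 1 to 2 with 1 array left out. The members' median of 0.05 was -0.03 (-0.0319) with the mean of all probe sets and -0.0269 to 0.0803 with 1 array left out. With that mean Pfkp gave -0.0098, with an adjusted p of 0.96 (from 0.0297 upward under the other settings). In null against heterozygous cells the count lower was 2, and 1 with no filter or no trend, 5 with array weights and 1 to 3 with 1 array left out. In heterozygous against wild type it was 0, and 0 to 1 with 1 array left out. Quantile and cyclic loess normalization each gave 4 higher and 1 lower in null against wild type, but not the same genes. With quantile normalization Egln3 and Pfkp were lost (limma adjusted p = 0.0631 and 0.083) and Pgk1 was gained as higher (0.21, adjusted p = 0.0245). With cyclic loess Pfkp was lost (0.0509). The causes were not tested. Over all genes the calls in null against wild type numbered 1937, and 1258 to 1938 with 1 array left out and 1290 without a trend. In heterozygous against wild type they were 172, and 83 without a trend, 86 with the mean of all probe sets, 112 with no filter and 99 to 169 with 1 array left out. In null against heterozygous they were 1770, and 1103 without a trend and 1033 to 1897 with 1 array left out.

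Same-numbered arrays of different groups had deviations correlated at -0.027 to 0.143, and differently numbered arrays at -0.151 to 0.092. These ranges overlap, and they cannot tell whether the numbers mark a shared donor or batch. With the replicate number as a block, the count of members higher in null against wild type was 4, with Pfkp at an adjusted p of 0.0534, and 5 were higher and 3 lower in null against heterozygous cells. A dim signal limits Slc16a3, Aldoc, Ankrd37 and P4ha2 most.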
